A study of Homo sapiens with 96 samples.

Results

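OGT and MGEA5 are the pair of genes that set the level of O-GlcNAc on nuclear and cytoplasmic proteins, and their splicing events were followed through inhibition of protein arginine methyltransferases (PRMTs). The tool rMATS reports 5 types of event: retained introns (RI), exons that are skipped (SE) or mutually exclusive (MXE), and alternative splice sites at the 3′ (A3SS) or 5′ end (A5SS) of introns. All of them were taken wherever a table gave the gene symbol as OGT or MGEA5. This gave 81 events of 239104 distinct events in the series. OGT had 31 (1 RI, 21 SE, 8 MXE, and 1 A3SS) and MGEA5 had 50 (33 SE, 12 MXE, and 5 A3SS), with no A5SS in either gene. MGEA5 had 0 RI in any of the 8 tables, so intron retention was measured here for OGT but not for MGEA5. The RNA was poly(A) RNA of whole cells, so a retained intron was seen but its place in the nucleus, which the word detained implies, was not measured.

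The libraries were made from A549, an established human lung adenocarcinoma cell line, and fell into 10 groups of 3. Cells received 1 µM GSK591, an inhibitor of the Type II enzyme PRMT5, or 1 µM MS023, an inhibitor of Type I PRMTs, for 2, 4, or 7 days. Other cells received both inhibitors (co-treatment) for 2 or 4 days, and the controls received 0.01% DMSO for 4 or 7 days. The 2- and 4-day groups were compared with 4-day DMSO and the 7-day groups with 7-day DMSO, so each set of comparisons shares its control libraries. Within a group the libraries are called a, b, and c, which is their order in the tables and carries no pairing. A549 is 1 cell line, and the labels do not say whether the 3 libraries came from separate cultures, so p-values cover the spread between these libraries.

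OGT is the transferase that places single N-acetylglucosamine (GlcNAc) residues on serine and threonine, and MGEA5, now named OGA, is the hydrolase that takes them off. Transcripts of both genes are known to carry introns that stay unspliced in polyadenylated nuclear RNA, and this retention is known to move with the cellular level of O-GlcNAc. PRMT5 makes symmetric and Type I PRMTs make asymmetric dimethylarginine, and spliceosomal and RNA-binding proteins are among their substrates.

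The only retained intron of either gene in the tables was OGT intron 4, on the plus strand at chrX:70764486-70767756 (hg19). It lies between exon 4 (69 nt) and exon 5 (117 nt) of the 22-exon transcript OGT-202, and it is 3271 nt long with a GC content of 41.6%. That made it longer than 98.7% of the 4928 distinct RI of the series, whose median length was 260 nt. Within OGT, 3 of the other 20 introns were longer. The annotation holds this intron within an exon of 2 of 21 OGT transcripts, OGT-210 (retained intron) and OGT-215 (nonsense-mediated decay). The bases at its start are shown because they decide the reading frame of the retained form. They cover the last 30 bases of exon 4 and the first 30 of the intron, chrX:70764456-70764515, plus strand, with the first in-frame stop codon in capitals.
OGT exon 4 end and intron 4 start: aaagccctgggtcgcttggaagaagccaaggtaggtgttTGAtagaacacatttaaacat
The stop codon begins at intron base 10, so the retained form reads 180 codons before it, against 1046 in the reference mRNA.

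The splice sites of intron 4 are set beside those of the neighbouring introns 3 and 5 to show how they differ, with intron bases in capitals and exon bases in lower case.
OGT intron 3 5′ splice site: cctGTGAGT
OGT intron 3 3′ splice site: CAGCGTCTCTGGGTTTCTAGgat
OGT intron 4 5′ splice site: aagGTAGGT
OGT intron 4 3′ splice site: TTTCATTAACCCCTCCTAAGgca
OGT intron 5 5′ splice site: aagGTTAGT
OGT intron 5 3′ splice site: AACTGTCTTGAAATTTTTAGgct
The 3′ splice site of intron 4 had 12 pyrimidines among the first 15 bases shown, which is within the range of 8 to 13 in the other 20 OGT introns. Of those 15 bases 6 were C, against 0 to 5 in the other introns. The same 5′ splice site letters stand at intron 16, which was not listed as an RI.

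Of the exons called below whose inclusion or skipping brings in an early stop codon, 3 are shown next. Each is given with 20 intron bases before and 6 after in lower case and the exon in capitals. OGT exon 7 lies at chrX:70775040-70775235 (plus strand, 196 nt, between exons 6 and 8). MGEA5 exon 11 lies at chr10:103553670-103553755 (minus strand, 86 nt, between exons 10 and 12 of the 16-exon transcript OGA-202). A 59-nt exon at chr10:103553443-103553501 (minus strand) lies within the intron that follows exon 11 and is annotated in 1 of 11 MGEA5 transcripts.
OGT exon 7: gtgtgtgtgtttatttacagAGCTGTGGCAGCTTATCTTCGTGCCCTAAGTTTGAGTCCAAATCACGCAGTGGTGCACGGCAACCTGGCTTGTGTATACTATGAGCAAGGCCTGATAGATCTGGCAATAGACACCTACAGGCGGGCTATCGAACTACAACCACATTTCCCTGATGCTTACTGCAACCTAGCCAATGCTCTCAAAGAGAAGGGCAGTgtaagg
MGEA5 exon 11: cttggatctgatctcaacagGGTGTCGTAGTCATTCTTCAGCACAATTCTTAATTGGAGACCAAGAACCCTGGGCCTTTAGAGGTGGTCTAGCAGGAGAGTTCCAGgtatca
MGEA5 59-nt exon: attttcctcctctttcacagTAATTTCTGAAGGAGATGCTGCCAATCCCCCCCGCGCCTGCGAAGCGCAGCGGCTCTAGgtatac
By the same translation of the reference mRNAs, an OGT mRNA without exon 7 meets a stop codon after 264 codons. An MGEA5 mRNA without exon 11 meets one after 666 of its 916 codons. Without exon 13 alone it meets one after 743 codons and without exon 14 alone after 755, and these exons are not shown. The 59-nt exon begins with a TAA, in frame when it is inserted between exons 11 and 12, and ends the frame after 690 codons.

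Inclusion is given as Ψ, the share of the inclusion form after the reads of each form are divided by that form's effective length. ΔΨ is the mean Ψ of the first group minus that of the second, and an event was called at an adjusted p under 0.05. Relative to 4-day DMSO, GSK591 changed 2 of 34 tested OGT and MGEA5 events at 2 days (1 higher and 1 lower), where 7.02% of all tested events of the series were called. At 4 days of GSK591 this was 6 of 44 (4 higher and 2 lower), against 11.2% of all events, and at 7 days 1 of 36 (higher), against 8.93%. MS023 changed 0 of 39 events at 2 days, when 2 had an unadjusted p under 0.05 and limma on the log2 odds also called 0, against 3.16% of all events. It changed 0 of 36 at 4 days, when 4 had an unadjusted p under 0.05 and limma again called 0, against 3.75% of all events. At 7 days of MS023, 1 of 30 was called (higher), against 4.75%. Co-treatment changed 3 of 35 at 2 days (1 higher and 2 lower), against 13.4%, and 5 of 49 at 4 days (4 higher and 1 lower), against 14.7%.

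These shares lay near those of the whole series, so the number of calls did not set the genes apart. Of the 81 events, 77 had at least 10 reads in every library of at least 1 comparison, 18 were tested in all 8, and 4 MGEA5 SE with few reads were never tested. The median ΔΨ of the members lay between -0.0016 and 0.00031 over the 8 comparisons, and that of all events between -0.0022 and -0.00023. Among the 54 SE of both genes, 45 had a mean Ψ above 0.9 in every group. The calls fell on 10 events, and 18 calls were made over the 8 comparisons. Limma on the log2 odds made 2, and a fit without moderation of the dispersion also made 2. The members with calls are described next, in the order OGT intron 4, OGT exons, and MGEA5 exons.

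**Figure D1:**
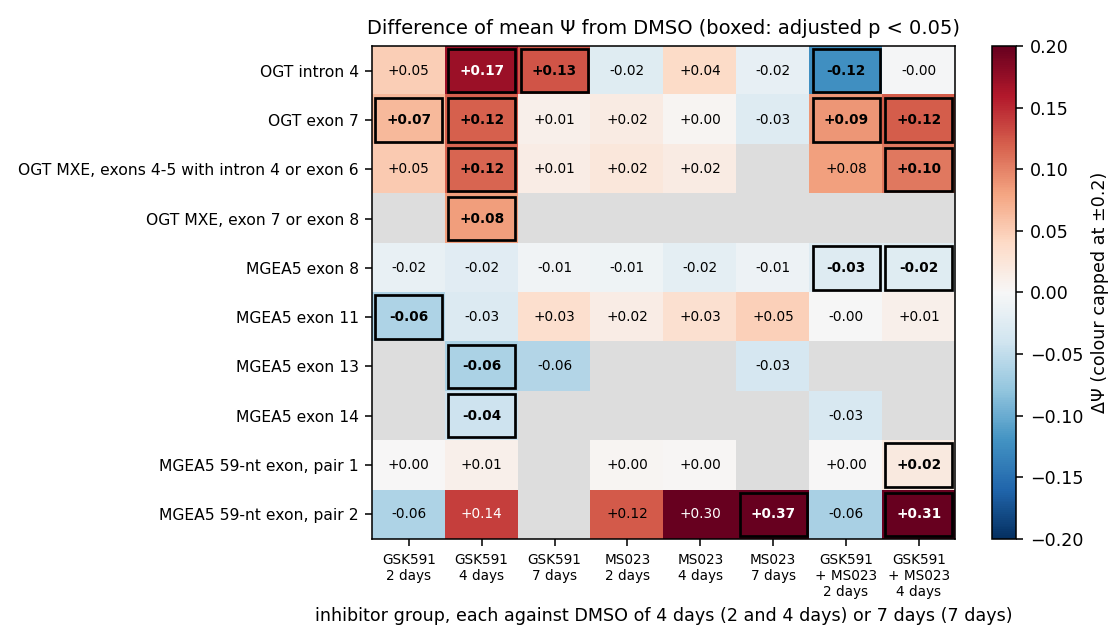
Difference of mean Ψ (inhibitor minus DMSO) for the OGT and MGEA5 events with at least 1 call, in each of the 8 comparisons, as a colour map capped at 0.2 in either direction, with called differences boxed and untested ones in grey. OGT intron 4 is highest with GSK591 at 4 days (0.171) and lowest with co-treatment at 2 days (-0.123), while OGT exon 7 is positive in both (0.119 and 0.0876).

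In untreated cells OGT intron 4 gave about as many unspliced as spliced reads once these were divided by length, and this share was higher than in the DMSO control with GSK591 at 4 and 7 days and lower with 2 days of co-treatment. The 2-day groups have a 4-day control, so days in culture and treatment cannot be told apart in them, and DMSO itself differed between 4 and 7 days in this intron, as given below. In 4-day DMSO, Ψ of the intron was 0.467, 0.485, and 0.484 in libraries a, b, and c, with a mean of 0.479 ± 0.00992 (SD, n = 3). This was higher than the mean Ψ of 64.5% of the RI tested, whose median was 0.180. With GSK591 for 4 days it was 0.659, 0.638, and 0.653. Every GSK591 library lay above every DMSO library, and ΔΨ was 0.171 (log2 odds 1.01 ± 0.15 SE, adjusted p = 1.3e-05). The call held without each of the 6 libraries in turn, with ΔΨ from 0.165 to 0.177. With limma the adjusted p was 0.0137. Read coverage along OGT moved with the groups too. It is given as the log2 ratio of the reads of a 5′ exon to those of a 3′ exon of the gene, relative to the median of all 30 libraries. That ratio was -0.427, -0.251, and -0.329 with GSK591 and -0.0958, -0.136, and -0.0218 in DMSO, with no overlap, and its part in the difference was not tested. A rise of RI was common in that comparison, since 33.9% of all RI tested were called higher.

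After 2 days of GSK591 the values were 0.475, 0.567, and 0.544. The lowest of them lay within the range of DMSO, and ΔΨ of 0.0499 was not called (adjusted p = 0.124). Library a was the low one, and it stood apart in read coverage. The median of the 5′ to 3′ ratio over 2982 genes was -0.464 in it and lay between -0.0783 and 0.219 in the other 29 libraries, and that of OGT was -1.47 there. It also had the fewest intron 4 reads of all libraries, 208 per 1000000 reads on RI. Without that library ΔΨ was 0.0766 with an adjusted p of 0.0626, and the part of read coverage in the value was not tested. The rise from 2 to 4 days of GSK591, 0.121, was not called either (adjusted p = 0.0581).

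Values at 7 days were lower in control and GSK591-treated cells than at 4 days. Ψ was 0.361, 0.337, and 0.376 in 7-day DMSO and 0.535, 0.44, and 0.476 after 7 days of GSK591. The groups did not overlap, with a ΔΨ of 0.126 (log2 odds 0.73 ± 0.16 SE, adjusted p = 9.8e-04), in a comparison where 21.8% of RI were called higher. With limma the adjusted p was 0.0916 and without moderation it was 0.079. The 5′ to 3′ ratio of OGT was 0.316, 0.234, and 0.102 with GSK591 and 0.482, 0.502, and 1.06 in DMSO, also with no overlap, and its part was not tested. The effect of GSK591 at 7 days minus that at 4 days was -0.0456, and this difference was not called (adjusted p = 0.517).

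With MS023 no difference from DMSO was called in the intron. Its values were 0.443, 0.472, and 0.448 at 2 days, with a ΔΨ of -0.0243 (log2 odds -0.14 ± 0.14 SE, adjusted p = 0.653). At 4 days they were 0.545, 0.501, and 0.504, all above the DMSO libraries, with a ΔΨ of 0.0377 (adjusted p = 0.393). At 7 days they were 0.325, 0.393, and 0.309, which overlapped 7-day DMSO, with a ΔΨ of -0.016 (adjusted p = 0.698). Set directly against MS023, GSK591 gave the higher Ψ on each day, with differences of 0.0741 at 2 days (adjusted p = 0.0214), 0.133 at 4 days (adjusted p = 1.2e-04), and 0.142 at 7 days (adjusted p = 5.2e-05). RI called higher in these direct comparisons made up 31.4%, 40.9%, and 32.9% of those tested. The 2-day call was lost in 4 of the 6 fits that left out 1 library, and limma did not call it (adjusted p = 0.259) or the 7-day difference (adjusted p = 0.0578).

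Co-treatment for 2 days gave values below those of either inhibitor on the same day. Ψ was 0.406, 0.335, and 0.328, all below the 4-day DMSO libraries. ΔΨ was -0.123 (log2 odds -0.75 ± 0.15 SE, adjusted p = 3.9e-04), and the call held without each library in turn (-0.148 to -0.108), although limma gave an adjusted p of 0.0722. Of the RI tested, 5.03% were called lower and 29.7% higher in that comparison, so OGT intron 4 was among the smaller group. The 5′ to 3′ ratio of OGT was 0.241, 0.334, and 0.322 with this co-treatment, above all the 4-day DMSO libraries, and its part was not tested. After 4 days of co-treatment Ψ was 0.475, 0.490, and 0.465, interleaved with DMSO, and ΔΨ was -0.0018 (adjusted p = 0.968). The ratio overlapped that of DMSO in this group, at -0.228, -0.148, and -0.0224.

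Co-treatment was then set against each inhibitor alone. Against GSK591 alone the difference was -0.172 at 2 days (adjusted p = 0.00157) and -0.173 at 4 days (adjusted p = 5.9e-05), where 1.65% and 5.33% of RI were called lower. Against MS023 alone it was -0.0983 at 2 days (adjusted p = 7.3e-04), where 4.11% of RI were called lower, and -0.0395 at 4 days, which was not called (adjusted p = 0.258). Limma called none of these 3 (adjusted p of 0.26, 0.0824, and 0.104). A term for how far co-treatment lay from the added log odds of GSK591 and MS023 was fitted after the data had been seen. At 4 days the sum of both effects would have given a Ψ of 0.684, and 0.477 was measured (log2 odds -1.24 ± 0.20 SE, adjusted p = 8.0e-04). At 2 days the sum would have given 0.504, and 0.356 was measured (log2 odds -0.97 ± 0.22 SE, adjusted p = 0.0448). Departures in this direction were called for 0.582% of RI at 4 days and 0.134% at 2 days. The 4-day departure held without each of the 12 libraries, and the 2-day departure lost its call in 10 of the 12 such fits (adjusted p up to 0.14).

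**Figure D2:**
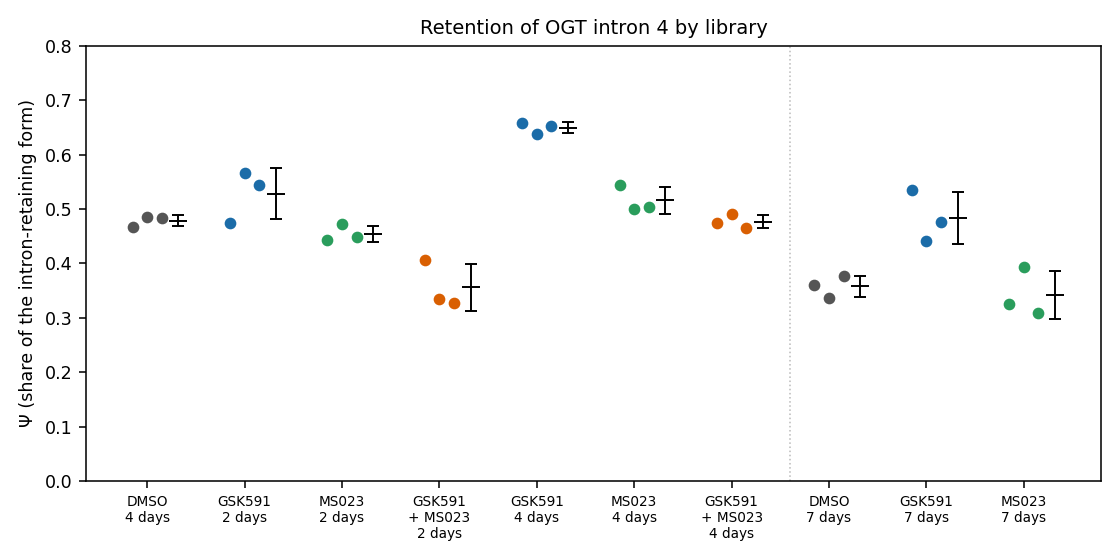
Ψ of OGT intron 4 (y axis) in each of the 30 libraries by group (x axis), with points for libraries and, beside them, a line and bars for the group mean and SD. The 3 libraries of 4-day GSK591 (0.638 to 0.659) lie above all others, and 7-day MS023, 2-day co-treatment, and 7-day DMSO are the lowest groups.

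Ordered by mean Ψ, the groups formed 3 tiers. The lowest held MS023 at 7 days (0.342), co-treatment at 2 days (0.356), and DMSO at 7 days (0.358), whose libraries overlap. The middle tier ran from MS023 at 2 days (0.455) through co-treatment at 4 days, DMSO at 4 days, GSK591 at 7 days, and MS023 at 4 days to GSK591 at 2 days (0.529), and each of its groups overlapped the next. GSK591 at 4 days (0.650) stood alone at the top. The DMSO groups themselves differed: Ψ was lower at 7 than at 4 days, with a ΔΨ of -0.121 (log2 odds -0.72 ± 0.13 SE, adjusted p = 0.00133), when 5.61% of RI were called lower. Limma did not call it (adjusted p = 0.214). Read coverage of OGT moved with it, the 5′ to 3′ ratio going from -0.136 to -0.0218 in 4-day DMSO to 0.48 to 1.06 in 7-day DMSO, and its part in the difference was not tested.

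The reads of both forms show where Ψ came from. They are given per 1000000 reads on the 4067 RI that all 8 tables list, of which the libraries had 3054100 to 5107213, and they describe abundance within these libraries with no test. In 4-day DMSO the intron took 807 ± 62.6 reads per 1000000 (SD, n = 3) and the exon 4 to exon 5 junction 38.2 ± 1.65. After 4 days of GSK591 the intron took 1064 ± 52.9 and the junction 24.9 ± 1.12, so on this scale the unspliced reads were higher and the spliced reads lower, with no overlap in either. The scale is made of RI reads, and 33.9% of RI were called higher there. Before scaling, the intron reads overlapped (3588 to 4542 with GSK591 and 2860 to 3656 in DMSO). The junction reads did not (81 to 105 and 142 to 169). After 2 days of co-treatment the intron took 538 ± 45.6 and the junction 42.9 ± 8.08, so the lower Ψ came with fewer intron reads while the junction reads overlapped those of DMSO. After 4 days of co-treatment both were lower than in DMSO, at 577 ± 51.8 for the intron and 27.5 ± 1.08 for the junction, and Ψ stayed where it was. At 7 days GSK591 and DMSO had like intron reads (604 ± 7.55 and 603 ± 93.3), and the junction took 28.4 ± 5.01 with GSK591 and 46.9 ± 4.37 with DMSO. MS023 at 7 days had the fewest intron reads, 384 ± 25.2, with 32.5 ± 4.28 on the junction. In bulk RNA such as this, fewer cells that make a transcript and less of it per cell cannot be told apart. Reads anywhere in the 3271 nt count for the retained form, so a transcript that starts or ends inside the intron cannot be told apart from one that spans it.

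**Figure D3:**
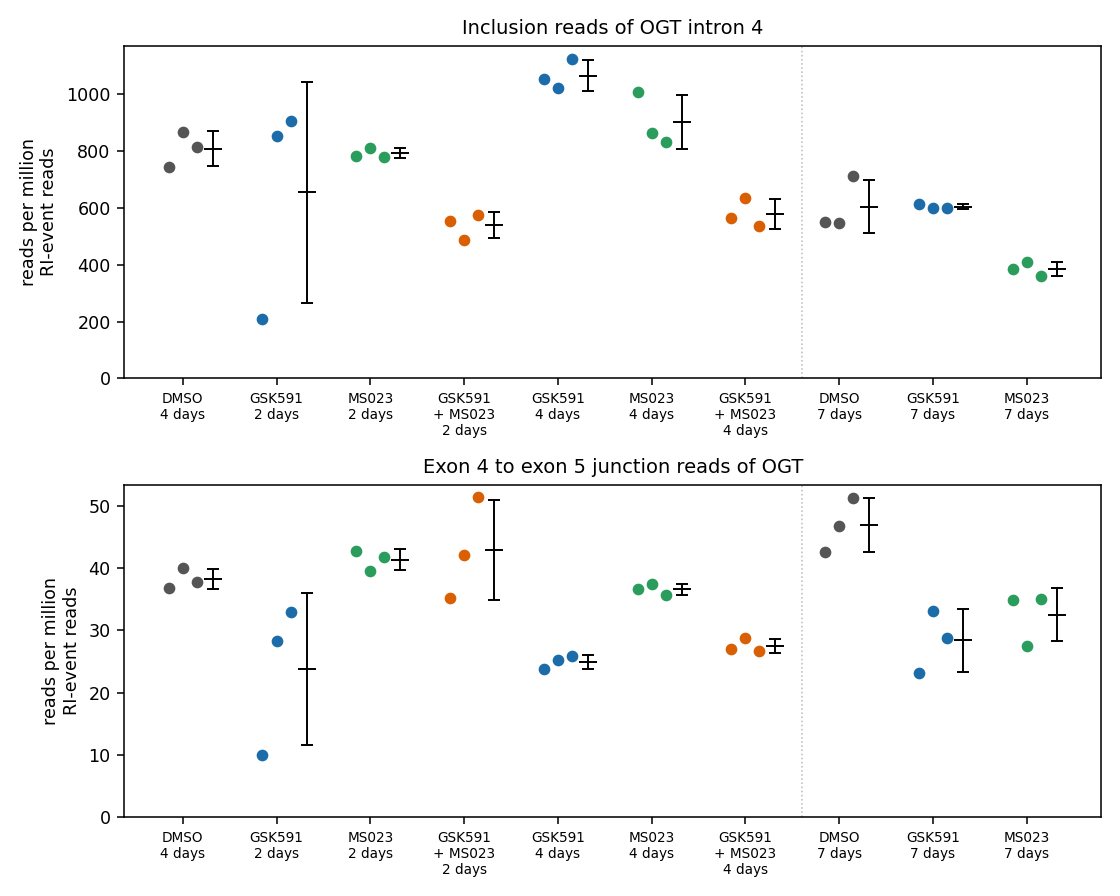
Reads of OGT intron 4 and of the spliced exon 4 to exon 5 junction, per 1000000 reads on shared RI, in each library by group, with the group mean and SD. With GSK591 at 4 days the intron reads are higher (1064) and the junction reads lower (24.9) than in 4-day DMSO (807 and 38.2), and with co-treatment at 4 days both are lower.

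Compared with OGT intron 4 were 2415 RI of other genes that were tested throughout and whose group means differed by at least a set minimum. Those whose group means followed it most closely over the 10 groups are given as a description. They were in MCAM, a cell adhesion molecule (chr11:119181896-119181989, minus strand, Pearson r = 0.864), TRMT13, a tRNA methyltransferase (chr1:100606071-100606407, plus strand, r = 0.858), and RSRC2, an arginine/serine-rich protein (chr12:123003577-123005931, minus strand, r = 0.838). All 3 had their highest mean with GSK591 at 4 days, at Ψ of 0.111, 0.322, and 0.162. OGT intron 4 is highest there too, so the choice by likeness favours such a peak and it is no separate finding. The points share libraries and depth.

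OGT exon 7 encodes part of the tetratricopeptide repeats through which OGT binds its substrates, and it was skipped in part of the transcripts of untreated cells. GSK591 and co-treatment at 4 days moved it to near-complete inclusion. In 4-day DMSO its Ψ was 0.829, 0.832, and 0.833. After 4 days of GSK591 it was 0.927, 0.961, and 0.963, with no overlap and a ΔΨ of 0.119 (log2 odds 2.0 ± 0.28 SE, adjusted p = 6.4e-08). Co-treatment for 4 days gave 0.974, 0.937, and 0.947, also with no overlap, and a ΔΨ of 0.122 (log2 odds 2.07 ± 0.33 SE, adjusted p = 4.3e-07). Higher SE calls were few, at 2.52% of SE with GSK591 and 4.01% with co-treatment. Both calls held without each library in turn. The OGT read coverage given above stood apart from DMSO with GSK591 at 4 days and overlapped it with co-treatment at 4 days. Limma gave adjusted p values of 0.143 and 0.0889 for them, and a fit without moderation gave 0.157 and 0.0883.

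At 2 days the same exon was higher in every treated library than in DMSO, at 0.876, 0.946, and 0.867 with GSK591 and 0.894, 0.964, and 0.898 with co-treatment. ΔΨ was 0.065 with GSK591 (adjusted p = 0.0227), where 1.34% of SE were called higher, and 0.0876 with co-treatment (adjusted p = 8.3e-04), where the share was 2.32%. The GSK591 call was lost in 5 of the 6 fits without 1 library, namely all but that without GSK591 library c, and without GSK591 library b ΔΨ was 0.0403 (adjusted p = 0.322). The co-treatment call was lost without co-treated library b (ΔΨ 0.0651, adjusted p = 0.0698). Each of those b libraries had the fewest skipping reads of its group, 18 and 8.

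MS023 gave an exon 7 Ψ of 0.855, 0.844, and 0.842 at 2 days and 0.861, 0.811, and 0.833 at 4 days. The 2-day values thus also lay above all 4-day DMSO libraries, and the 4-day values overlapped them. ΔΨ was 0.0158 and 0.00398, neither called (adjusted p = 0.57 and 0.953). At 4 days Ψ was higher with GSK591 than with MS023 by 0.115 (adjusted p = 4.4e-09). Co-treatment exceeded MS023 by 0.118 at 4 days (adjusted p = 3.4e-08) and by 0.0719 at 2 days (adjusted p = 0.00622). The last was lost without MS023 library c (0.0695, adjusted p = 0.0587) or co-treated library b (0.0493, adjusted p = 0.202). Against GSK591 alone co-treatment differed by 0.0226 at 2 days and 0.00235 at 4 days, and neither was called (adjusted p = 0.701 and 0.955).

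In this exon the 7-day DMSO libraries had moved as well, to 0.937, 0.881, and 0.925, all above 4-day DMSO by a mean of 0.0833 (adjusted p = 0.00568), where 0.589% of SE were called higher. That call was lost without 7-day DMSO library a (0.0719, adjusted p = 0.289), b (0.1, adjusted p = 0.0663), or c (0.0778, adjusted p = 0.185). The 5′ to 3′ ratio of OGT differed between these groups as given above. At 7 days GSK591 gave 0.945, 0.906, and 0.923 and MS023 gave 0.917, 0.862, and 0.886. Both overlapped 7-day DMSO, with ΔΨ of 0.01 (adjusted p = 0.737) and -0.0256 (adjusted p = 0.499). The effect of GSK591 at 7 days minus that at 4 days was -0.109 (log2 odds -1.82 ± 0.49 SE, adjusted p = 0.0467), where 0.243% of SE were called in this direction. This call was lost in 10 of the 12 fits without 1 library, with ΔΨ between -0.126 and -0.098.

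Skipping of exon 7 rested on few reads. Skipping reads were 60 to 73 per library in 4-day DMSO, 13 to 22 after 4 days of GSK591, and 7 to 14 after 4 days of co-treatment. The reads of both forms were 20.6 ± 1.12 per 1000000 SE reads in 4-day DMSO (SD, n = 3), 22.2 ± 1.36 with GSK591 at 4 days, 15.7 ± 0.67 with co-treatment at 4 days, and 12.3 ± 0.79 in 7-day DMSO.

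**Figure D4:**
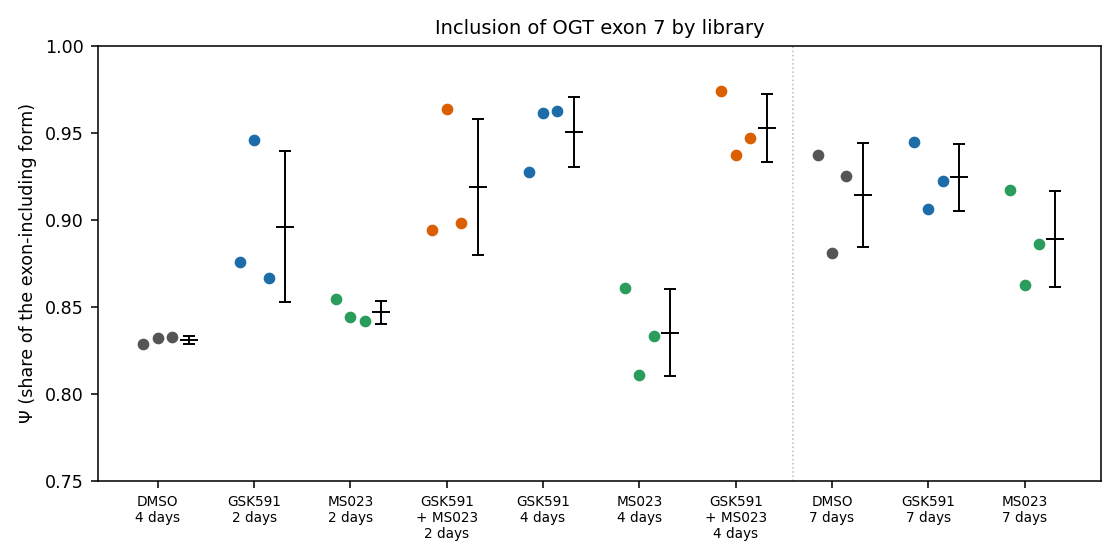
Ψ of OGT exon 7 (y axis) in each of the 30 libraries by group (x axis), with the group mean and SD. The 4-day DMSO libraries lie together at 0.829 to 0.833, 4-day GSK591 and co-treated libraries lie above 0.926, and the 7-day groups overlap each other.

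A pair of OGT MXE events was called too, and they share reads with intron 4 and exon 7. One sets the block of exon 4, intron 4, and exon 5 against exon 6, between exons 3 and 8. Its Ψ was 0.845, 0.829, and 0.830 in 4-day DMSO and 0.928, 0.969, and 0.955 after 4 days of GSK591, with no overlap (ΔΨ 0.116, adjusted p = 3.8e-04). After 4 days of co-treatment it was 0.955, 0.942, and 0.921 (ΔΨ 0.105, adjusted p = 0.00424), and the call was lost without co-treated library a (0.0968, adjusted p = 0.0502). Exon 6 took 34 to 49 reads of this event per library in DMSO, 8 to 18 with GSK591, and 7 to 10 with co-treatment. The other sets exon 7 against exon 8, between exons 6 and 9, and was listed in the 4-day GSK591 table alone. Its Ψ was 0.426, 0.439, and 0.456 in DMSO and 0.509, 0.486, and 0.576 with GSK591 (ΔΨ 0.0834, adjusted p = 0.0178). That call was lost without DMSO library a (0.0763, adjusted p = 0.0824), GSK591 library a (0.0909, adjusted p = 0.0537), or GSK591 library c (0.0571, adjusted p = 0.235). Neither MXE marks an exclusive choice of exon. As SE, exon 6 had group means of at least 0.994 and exon 8 of at least 0.991, so exons 7 and 8 mostly lie on the same mRNAs. Reads that join exon 6 to exon 8, which skip exon 7, count for the exon 6 form of the block event.

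Exons 8, 11, 13, and 14 of MGEA5 had a mean Ψ of at least 0.879 in every group, and the changes called in them were under 0.08 in Ψ, whereas a rarer 59-nt exon had larger ones on few reads. Exon 11 was skipped more often after 2 days of GSK591. Its Ψ was 0.938, 0.956, and 0.931 in 4-day DMSO and 0.881, 0.872, and 0.886 with GSK591. The groups did not overlap. Skipping reads were 19, 16, and 23 skipping reads in DMSO and 25, 35, and 24 with GSK591, and ΔΨ was -0.0622 (log2 odds -1.16 ± 0.30 SE, adjusted p = 0.00977). The call was lost without DMSO library b (-0.0551, adjusted p = 0.0961), GSK591 library a (-0.063, adjusted p = 0.0506), or GSK591 library b (-0.0583, adjusted p = 0.0822). Library a of this group is the one with fewer 5′ reads, and the 5′ to 3′ ratio of MGEA5 was -1.24 in it. At 4 days GSK591 gave 0.919, 0.904, and 0.921, below all 3 DMSO libraries, but ΔΨ of -0.0267 was not called (adjusted p = 0.274).

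With MS023 exon 11 gave 0.959, 0.952, and 0.960 after 2 days, overlapping DMSO, and 0.970, 0.989, and 0.961 after 4 days, above all DMSO libraries. ΔΨ from DMSO was 0.0155 (adjusted p = 0.495) and 0.032 (adjusted p = 0.0711), neither called. The inhibitors differed from each other, with a ΔΨ of GSK591 against MS023 of -0.0777 at 2 days (adjusted p = 2.3e-04) and -0.0586 at 4 days (adjusted p = 0.0011). Both held without each library in turn, whereas limma gave adjusted p of 0.188 and 0.143. Co-treated values (0.956, 0.949, and 0.917 at 2 days, and 0.973, 0.921, and 0.959 at 4 days) overlapped DMSO and were not called. At 7 days DMSO gave 0.914, 0.890, and 0.943, GSK591 0.905, 0.946, and 0.995, and MS023 0.952, 0.975, and 0.964, with no call for either inhibitor (adjusted p = 0.275 and 0.0601).

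Exon 8 (chr10:103559999-103560157, minus strand, 159 nt) was called with co-treatment on both days, and skipping it keeps the reading frame and leaves 863 codons. Its Ψ was 0.986, 0.977, and 0.99 in 4-day DMSO, 0.955, 0.955, and 0.967 after 2 days of co-treatment, and 0.956, 0.960, and 0.963 after 4 days. The co-treated libraries lay below all DMSO libraries on both days, with ΔΨ of -0.0254 (adjusted p = 0.0311) and -0.0248 (adjusted p = 0.0315). These rest on few skipping reads, 5, 10, and 4 in DMSO, 14, 15, and 8 at 2 days, and 17, 12, and 10 at 4 days. The 5′ to 3′ ratio of MGEA5 lay above that of DMSO (-0.39 to -0.249) in both, at -0.238 to 0.0672 and -0.00926 to 0.113, and its part was not tested. In both, leaving out any 1 library but DMSO library b lost the call, with adjusted p up to 0.145 and 0.141 without DMSO library c. The exon 8 values of the single inhibitors at 2 and 4 days lay from 0.943 to 0.991, with no call. Those of GSK591 at 4 days, 0.956 to 0.970, also lay below all DMSO libraries and overlapped 4-day co-treatment. MS023 at 4 days gave 0.944 to 0.982, which overlapped DMSO. A lower exon 8 Ψ was thus not particular to co-treatment.

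Exons 13 and 14 were called lower after 4 days of GSK591 in events that pair them with a 63-nt form of exon 12 and with exon 15. Exon 13 (chr10:103551111-103551196, 86 nt) gave 0.945, 0.977, and 1.00 in DMSO and 0.935, 0.884, and 0.911 with GSK591 (ΔΨ -0.0637, adjusted p = 0.0195). Exon 14 (chr10:103550653-103550845, 193 nt) gave 0.971, 0.984, and 1.00 in DMSO and 0.965, 0.921, and 0.945 with GSK591 (ΔΨ -0.0417, adjusted p = 0.0287). The same skipping reads serve both events, 6, 4, and 0 in DMSO and 5, 14, and 9 with GSK591, so they are 1 observation. These reads join exon 12 to exon 15 and leave out both exons together. The lengths of the 2 exons together make a whole number of codons, so that form keeps the reading frame. Skipping of either exon alone was rare. Between exons 12 and 14, exon 13 had 3764 inclusion and 2 skipping reads over the groups that list the event. Between exons 13 and 15, exon 14 had 7819 and 2. Both calls were lost without any 1 library except DMSO library a, with adjusted p up to 0.2 and 0.228 without GSK591 library b.

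The 59-nt exon had few reads in every library. Joined to a 183-nt form of exon 11 and to exon 12, it had 1, 2, and 3 inclusion reads in 4-day DMSO and 3, 12, and 4 after 4 days of co-treatment. Ψ was at most 0.0069 in DMSO and 0.0084, 0.0471, and 0.0184 with co-treatment (ΔΨ 0.0199, adjusted p = 0.0413). Leaving out any 1 library but co-treated library a lost the call, and without co-treated library b ΔΨ was 0.0087 (adjusted p = 0.345). Joined to a 38-nt form of exon 10 in place of exon 11, its Ψ was 0.102, 0.239, and 0.199 in DMSO and 0.672, 0.287, and 0.518 after 4 days of co-treatment (ΔΨ 0.312, adjusted p = 0.0207), and all omissions but that of co-treated library b lost the call, that of co-treated library a leaving 0.223 (adjusted p = 0.247). Against 7-day DMSO, MS023 gave the same event a ΔΨ of 0.375 (adjusted p = 1.4e-04), from 0, 0, and 1 inclusion reads in DMSO and 4, 6, and 6 with MS023. GSK591 at 7 days gave 0.323, 0.472, and 0.782 and could not be tested, since 1 library had 6 reads, and the mean of 7-day DMSO (0.0174) was below that of 4-day DMSO (0.180), though not called (adjusted p = 0.0592). That MS023 call was lost without MS023 library b (0.312, adjusted p = 0.0519), and limma gave 0.118. The skipping reads of this form are those of exon 11, and no library of the 7-day comparison had more than 21 of them.

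**Figure D5:**
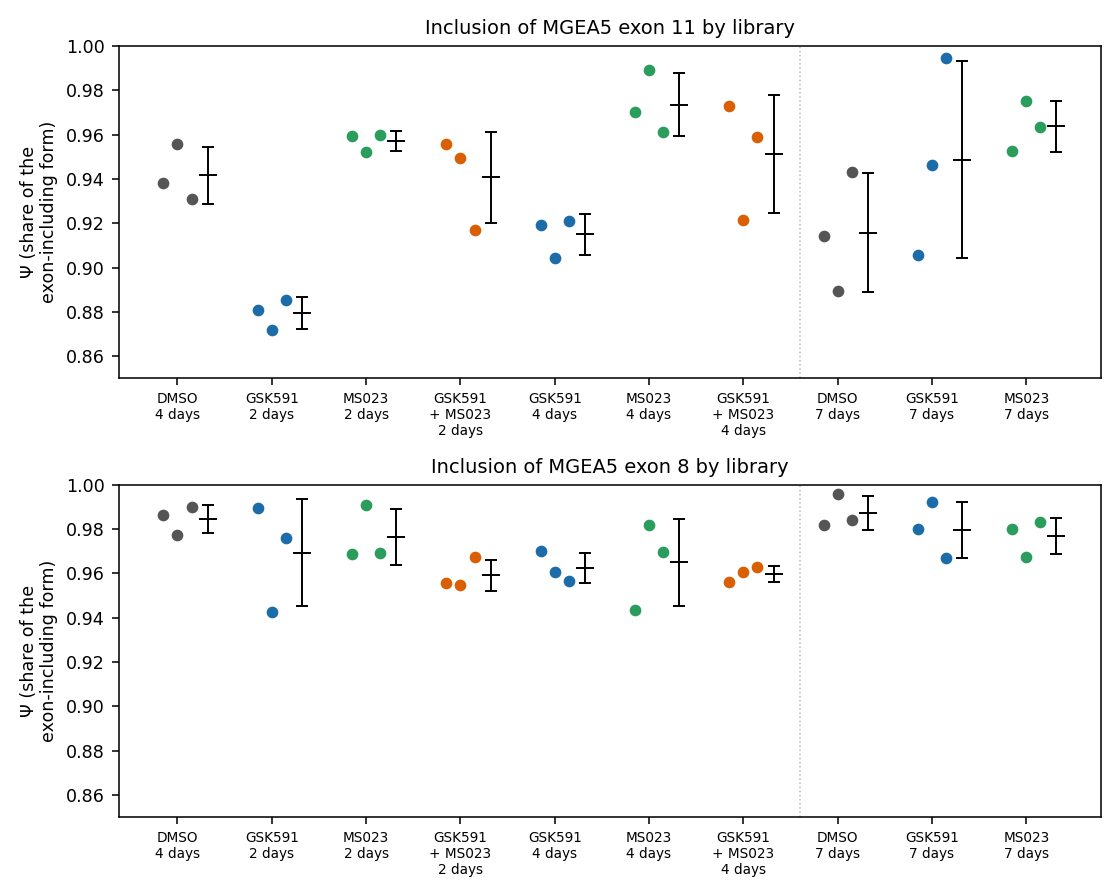
Ψ of MGEA5 exon 11 and exon 8 (y axis) in each library by group (x axis), with the group mean and SD. Exon 11 is lowest with GSK591 at 2 days (0.872 to 0.886), and all exon 8 values lie above 0.942.

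Between 4 and 7 days in DMSO, 4 of 31 events of the 2 genes were called, against 7.04% of all events tested. They were OGT intron 4 (lower), OGT exon 7 (higher), the OGT event of the exon 4 to exon 5 block, and an MGEA5 MXE. The OGT block event was higher by 0.0918 (adjusted p = 0.00993). Its call was lost without 7-day DMSO library a (0.0887, adjusted p = 0.0502) or c (0.0784, adjusted p = 0.083). The MGEA5 MXE sets exon 4 against exon 5, and its Ψ is the share of the exon 4 form. It was named after its values were seen and was higher by 0.165 (adjusted p = 5.5e-06). This MXE does not mark an exclusive choice of exon either. As SE, full-length exon 4 had a lowest group mean of 0.986 and exon 5 of 0.971, so both mostly lie on the same mRNAs. The 5′ to 3′ ratio of MGEA5 was -0.39 to -0.249 in 4-day DMSO and 0.55 to 0.895 in 7-day DMSO, and its part was not tested.

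The other genes of the pathway were taken as a list of 21, the enzymes that make, salvage, or carry UDP-GlcNAc, the extracellular transferase EOGT, and protein partners of OGT. Called events of the list were 11 of 172 at 2 days of GSK591 (4 higher and 7 lower), 29 of 201 at 4 days (11 and 18), and 15 of 192 at 7 days (8 and 7), or 6.4%, 14.4%, and 7.81%. With MS023 they were 4 of 181, 5 of 198, and 9 of 190 (2.21%, 2.53%, and 4.74%), and with co-treatment 31 of 206 and 29 of 180 (15.0% and 16.1%). Like those of OGT and MGEA5, these shares lay near the background of each comparison.
With GSK591, 14 RI of the list were tested on each day. At 2 days 2 were called, both higher, or 14.3% against 26.4% of all RI. At 7 days 1 was called, higher, or 7.14% against 27.9%. At 4 days the 14 RI held 6 calls, 5 higher and 1 lower, or 42.9% against 38.2% of all RI. NAGK, the kinase that salvages GlcNAc, had 3 of the higher ones, with a ΔΨ of 0.132 (adjusted p = 0.00357), 0.0595 (adjusted p = 8.9e-05), and 0.0244 (adjusted p = 0.00613). EOGT rose by 0.155 (adjusted p = 0.0186), UAP1L1, a relative of the enzyme that makes UDP-GlcNAc, by 0.0796 (adjusted p = 0.0245), and BAP1, a deubiquitinase bound to OGT, fell by 0.161 (adjusted p = 0.0421).
The largest changes of the list were in events with few reads, except in NAGK. An A3SS of NAGK (chr2:71302685-71303831, plus strand) had a Ψ of 0.943, 1.00, and 0.890 in 4-day DMSO and 0.434, 0.427, and 0.646 after 4 days of co-treatment, on 235 to 508 reads per library (ΔΨ -0.442, adjusted p = 2.0e-08). It was also called with co-treatment at 2 days (mean Ψ 0.519) and GSK591 at 4 days (0.780). A 90-nt exon of GNPDA1, which deaminates glucosamine phosphate, had 0.438, 0.652, and 0.529 in DMSO and 0, 0.308, and 0.0375 after 2 days of GSK591, on 12 to 24 reads (ΔΨ -0.424, adjusted p = 0.0258). A TET2 exon in overlapping forms of 127 and 146 nt, in the gene of a methylcytosine dioxygenase that binds OGT, fell by 0.457 (adjusted p = 0.00844) and by 0.424 (adjusted p = 0.00426) after 2 days of MS023, on 13 to 35 reads.

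The tables hold splicing reads and no expression levels, so the cell line could be checked only by which genes had events. Of the epithelial markers, KRT8 had 22 events, KRT18 8, EPCAM 5, and KRT19 0. Their reads in the inhibitor libraries, summed over events, were 10314104 for KRT8, 1688617 for KRT18, and only 2192 for EPCAM. The leukocyte marker PTPRC and the endothelial marker PECAM1 had 0, and the fibroblast gene COL1A1 had 2 with 1162 reads.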

How the data were processed

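Poly(A) RNA of A549 cells was sequenced from stranded libraries. Per the labels and file headers, the authors trimmed reads (Trim Galore 0.6.5), aligned them to hg19 (STAR 2.4.2a), and ran rMATS, whose deposited tables give for each event the inclusion and skipping read counts of 3 libraries per group, both effective lengths, and Ψ. The order of libraries within a table cell is not named in the labels. The tables' own p-values, FDRs, and differences of Ψ were not used. The 66 samples of other assays were not analysed here.

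Ψ was recomputed from the counts and effective lengths. A quasi-binomial logistic model of both read counts was fitted to every event with at least 10 reads in each library, its dispersion was moderated across events of a type with limma 3.58.1 (R 4.3.3) and held at 1 or more, and the F test was adjusted by Benjamini-Hochberg within event type and comparison. Events with reads of 1 form in all libraries were left out of the fit, a change from the planned test. The exact two-sided permutation test of 3 against 3 libraries cannot give a p below 0.1 and was used as a check. The members and lists were chosen with earlier results of these data known. Values are given for every RI of the genes and for each other event called against DMSO, up to 10, and from the list for the 4 largest called changes. Alternatives were limma on log2 odds, no moderation, minimums of 0 and 20 reads, adjustment over all types, leaving out each library, and, added after the data had been seen, keeping events of 1 form. Depth was 3054100 to 5107213 reads per library on shared RI. Intron, exon, and transcript positions and sequences are from GRCh37 with the GENCODE v44lift37 annotation. Python 3.11.15, SciPy 1.17.1, and pandas 2.3.3 were used.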

Additional observations from a re-analysis of the deposited data

Results flagged for a closer look

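The effect of GSK591 on OGT exon 7 differed between days. ΔΨ was 0.119 at 4 days and 0.01 at 7 days, and the interaction term gave a difference of -0.109 (log2 odds -1.82 ± 0.49 SE, adjusted p = 0.0467). The mean Ψ with GSK591 was 0.950 at 4 days and 0.924 at 7 days, and that of DMSO was 0.831 and 0.914. The reads of both forms in DMSO were 20.6 ± 1.12 per 1000000 SE reads at 4 days and 12.3 ± 0.79 at 7 days (SD, n = 3). The call was lost in 10 of the 12 fits that left out 1 library, all but those without GSK591 4-day library a or DMSO 7-day library b.

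The effect of GSK591 on OGT intron 4 differed with and without MS023, in a term added after the data had been seen. At 2 days ΔΨ of GSK591 was 0.0499 alone and -0.0983 on top of MS023, a difference of -0.148 (log2 odds -0.97 ± 0.22 SE, adjusted p = 0.0448). At 4 days it was 0.171 alone and -0.0395 on top of MS023, a difference of -0.211 (log2 odds -1.24 ± 0.20 SE, adjusted p = 8.0e-04). The departure was in the lower direction in 22 of 86 RI called at 4 days and in 5 of 23 called at 2 days. OGT exon 7 had no called departure on either day.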

How the results depend on the processing

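No paired analysis was possible because the tables carry no replicate numbers for their libraries. Read depth limits the events with few reads of 1 form, above all the exons of MGEA5. The cause of the changes below was not tested.

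With limma the number of OGT and MGEA5 events called against DMSO was 0 for GSK591 at 2 and 7 days, co-treatment at 2 days, and MS023 at 7 days, and 1 for GSK591 and co-treatment at 4 days. In direct comparisons it was 3 for GSK591 against MS023 at 4 days, 1 for 7-day against 4-day DMSO, and 0 for the others. Without moderation it was 1 for co-treatment at 2 days and GSK591 at 4 days and 0 for the other comparisons with DMSO. With no minimum of reads GSK591 at 7 days had 2, and with 20 reads MS023 at 7 days had 0. Keeping events of 1 form gave 1 and 2 for GSK591 against MS023 at 2 and 4 days, 0 for co-treatment against GSK591 at 2 days, and 1 against MS023 at 2 and 4 days.

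For OGT intron 4, calls lost with limma at an unchanged ΔΨ were co-treatment at 2 days (-0.123, adjusted p = 0.0722), GSK591 at 7 days (0.126, adjusted p = 0.0916, and 0.079 without moderation), GSK591 against MS023 at 2 and 7 days (0.0741, adjusted p = 0.259, and 0.142, adjusted p = 0.0578), co-treatment against GSK591 at 2 and 4 days (-0.172, adjusted p = 0.26, and 0.118 with events of 1 form, and -0.173, adjusted p = 0.0824), co-treatment against MS023 at 2 days (-0.0983, adjusted p = 0.104), and 7-day against 4-day DMSO (-0.121, adjusted p = 0.214). The call of GSK591 at 4 days was kept in every alternative run.

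Leaving out 1 library gave these ranges of called events: 0 to 2 for GSK591 at 2 days, 1 to 3 for co-treatment at 2 days, 3 to 5 for GSK591 at 4 days, 2 to 3 for co-treatment at 4 days, 1 to 2 for GSK591 at 7 days, 0 to 1 for MS023 at 7 days, 1 to 2 for GSK591 against MS023 and co-treatment against MS023 at 2 days, 1 to 3 for co-treatment against MS023 at 4 days, 0 to 1 for GSK591 at 4 against 2 days, 2 to 4 for 7-day against 4-day DMSO, 0 to 1 for the change of the GSK591 effect from 4 to 7 days, and 0 to 1 for the 2-day departure from the sum. The ΔΨ of intron 4 ranged from -0.00845 to 0.00395 for co-treatment at 4 days, -0.0412 to 0.000776 for MS023 at 7 days, 0.055 to 0.101 for GSK591 against MS023 at 2 days, and -0.175 to -0.129 for the 2-day departure, and that of exon 7 from -0.00893 to 0.016 for MS023 at 4 days and -0.00684 to 0.0214 for GSK591 at 7 days.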
